A study of Homo sapiens with 8 samples.

Results

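The 10 genes described here were the zinc exporters SLC30A1, SLC30A5, SLC30A6, SLC30A7 and SLC30A9, the metallothioneins MT1F, MT1G, MT1X and MT2A, and the transcription factor MTF1. They were chosen by gene name among the 36474 genes of the count table, with earlier results of these data known. Their differences between time points are therefore given as a description, and so are the counts of members past a threshold further below. All 10 had a row and all 10 passed the filter on low counts. RNA was sequenced from LNCaP, an established cell line from a metastasis of a human prostate carcinoma. The cells were held for 6 to 12 hours in medium lacking serum and calcium. Asporin (ASPN), a small proteoglycan that stromal cells secrete into the matrix, was then added as recombinant human protein at 100 ng/mL. Libraries were made at 0 hours (n = 2), 12 hours (n = 3) and 24 hours (n = 3), all from starved LNCaP cells, and the labels call them biological replicates. The study's methods describe triplicate wells of this line. Whether the replicates came from separate experiments was not stated. A further time-0 library was left out by the authors for quality. No cells kept for 12 or 24 hours without ASPN were analysed here, so the effect of ASPN and that of longer time in the medium cannot be told apart in any comparison below.

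Zinc is held at a very low free concentration in the cytosol, although many proteins need it for their fold or their catalysis. MTF1 is a zinc finger protein that senses free zinc, enters the nucleus and activates its targets through metal response elements, short DNA motifs with the core TGCACNC or TGCGCNC, where N stands for any base. Its best known targets are the metallothioneins, small cysteine-rich proteins that bind zinc and copper, and SLC30A1, the exporter of the plasma membrane that sends zinc out of the cell. SLC30A5 pairs with SLC30A6 and, like SLC30A7, moves zinc from the cytosol into the secretory pathway, where enzymes use it. SLC30A9 works in mitochondria. Import into the cytosol is carried out by the SLC39 family. The prostate epithelium is known for its high zinc content, which is lowered in prostate cancer.

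The sequence in front of each gene was examined for the metal response element core, because this motif is what MTF1 reads. The 250 bases before the RefSeq start (GRCh38.p14) were matched for 8 of the 10 members; the others are MT1F and MT1G. Both forms of the core were searched, TGCACNC and TGCGCNC, on either strand. The windows of MT2A (7 cores), MT1X (4 cores) and SLC30A1 (1 core) are printed 5′ to 3′ on the strand of the gene, since these genes are the known targets of MTF1 among the members with a window. Capitals mark the cores, and a core on the opposite strand reads GNGTGCA or GNGCGCA here.

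MT2A, chr16:56608334-56608583, plus strand: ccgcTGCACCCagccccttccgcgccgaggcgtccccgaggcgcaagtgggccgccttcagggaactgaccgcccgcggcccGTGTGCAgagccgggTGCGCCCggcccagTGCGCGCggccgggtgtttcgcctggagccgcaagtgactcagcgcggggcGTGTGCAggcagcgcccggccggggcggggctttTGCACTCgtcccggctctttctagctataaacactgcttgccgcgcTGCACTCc

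MT1X, chr16:56682220-56682469, plus strand: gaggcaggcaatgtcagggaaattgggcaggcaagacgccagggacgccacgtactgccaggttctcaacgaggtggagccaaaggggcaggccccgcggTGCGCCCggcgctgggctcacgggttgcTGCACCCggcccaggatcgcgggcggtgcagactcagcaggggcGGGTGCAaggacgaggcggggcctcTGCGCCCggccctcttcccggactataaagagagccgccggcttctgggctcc

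SLC30A1, chr1:211579162-211579411, minus strand: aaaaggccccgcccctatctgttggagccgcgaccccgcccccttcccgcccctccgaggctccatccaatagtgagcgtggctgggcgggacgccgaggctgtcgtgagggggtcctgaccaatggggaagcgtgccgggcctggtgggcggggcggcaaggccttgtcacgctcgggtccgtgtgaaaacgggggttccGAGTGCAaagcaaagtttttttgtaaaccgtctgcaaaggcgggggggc

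No core overlapped another in these windows. In MT2A the core nearest to the start began 8 bases before it, in MT1X 53 bases and in SLC30A1 49 bases before it. SLC30A6 held 1 core, 128 bases before its start, and none of these letters were in the windows of SLC30A5, SLC30A7, SLC30A9 and MTF1. Of all 35116 RefSeq promoter windows of this length, 24.8% held at least 1 core, 0.37% at least 4 and 0.0313% at least 7. A core is a match of letters, and binding of MTF1 was not measured.

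**Figure D1:**
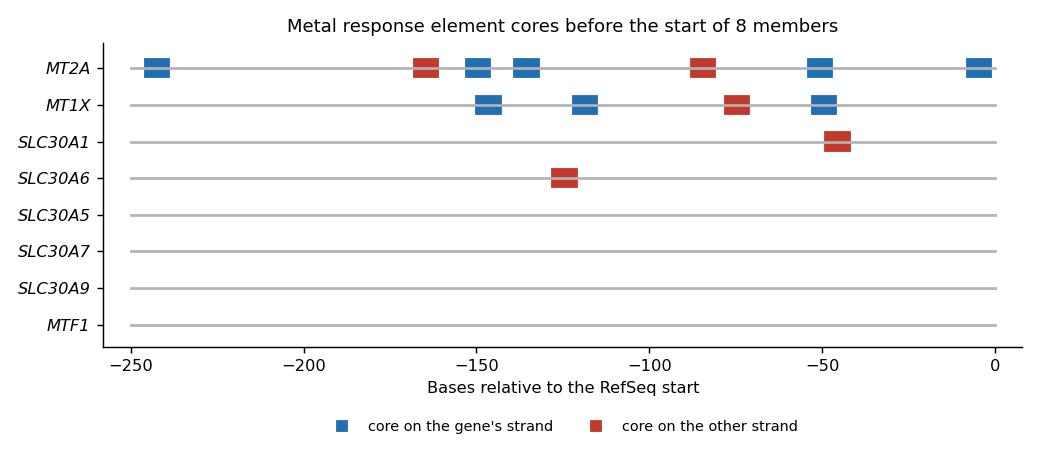
Position of each metal response element core in the 250 bases before the RefSeq start of 8 members (x axis, bases relative to the start), with blue boxes for cores on the strand of the gene and red boxes for the opposite strand. MT2A holds 7 cores, MT1X 4, SLC30A1 and SLC30A6 1 each, and the other 4 genes 0.

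Library totals ran from 73406825 to 96962135 counts. Levels are given as CPM, in which counts are made comparable between libraries by TMM scaling of the library totals. The line was checked against its markers: all 8 prostate luminal markers were detected, KLK3 (the gene of prostate-specific antigen) among them, with summed levels of 4598 to 4697 CPM at 0 hours, 5096 to 5145 CPM at 12 hours and 5115 to 5286 CPM at 24 hours. Markers of other cells were low beside these sums. COL1A1 (19.5 CPM) and VWF nevertheless lay above the member SLC30A1 (11.2 CPM) at 0 hours. The 4 fibroblast markers with a row summed to between 20.8 and 23.3 CPM over the 8 libraries, nearly all of it COL1A1, and DCN had at most 5 counts. The leukocyte marker PTPRC had at most 7 counts and the endothelial marker PECAM1 at most 2, while VWF lay at 16.0 ± 1.75 CPM (SD, n = 2) at 0 hours and 12.3 ± 1.05 CPM (SD, n = 3) at 24 hours. The part of these marker differences in the results was not tested. In bulk RNA, fewer cells expressing a gene and less of its RNA per cell cannot be told apart.

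MTF1 itself (ENSG00000188786.10, chr1:37809574-37859592, minus strand) was nearly level over the time course. Its libraries lay at 42.1 and 41.8 CPM at 0 hours, at 40.5, 41.4 and 41.3 CPM at 12 hours, and at 39.9, 41.0 and 40.4 CPM at 24 hours. Both 0-hour libraries were above all others, but narrowly. The log2 difference was −0.03 at 12 hours (95% interval −0.14 to 0.08) and −0.05 at 24 hours (−0.16 to 0.06).

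MT2A and MT1G had the largest differences from 0 hours of the 10 members at 12 hours. MT2A (ENSG00000125148.7, chr16:56608584-56609497, plus strand), the most widely expressed member of the family, had 25.4 and 25.3 CPM at 0 hours, 48.1, 39.1 and 44.0 CPM at 12 hours, and 49.7, 31.5 and 40.5 CPM at 24 hours. Every later library was above both 0-hour libraries, and the 24-hour libraries spanned the whole range of the 12-hour libraries. Relative to 0 hours MT2A was 1.72-fold higher at 12 hours (log2 difference 0.79 ± 0.21 SE) and 1.60-fold higher at 24 hours (0.68 ± 0.21 SE). Between 12 and 24 hours the difference was −0.11 on the log2 scale, with a 95% interval from −0.56 to 0.35.

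MT1G (ENSG00000125144.14, chr16:56666730-56668065, minus strand), another zinc-binding member of the cluster on chromosome 16, had 19.2 and 17.6 CPM at 0 hours, 31.5, 30.2 and 28.7 CPM at 12 hours, and 34.9, 29.2 and 28.5 CPM at 24 hours. None of the later libraries overlapped with the 0-hour libraries. The log2 difference was 0.71 ± 0.08 SE at 12 hours and 0.75 ± 0.08 SE at 24 hours, which are 1.64-fold and 1.68-fold.

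MT1X (ENSG00000187193.9, chr16:56682470-56684196, plus strand) was expressed at a lower level. Its libraries had 5.43 and 5.25 CPM at 0 hours, 6.25, 7.74 and 6.87 CPM at 12 hours, and 9.24, 6.31 and 8.36 CPM at 24 hours. The later libraries were again all above 0 hours, but those of 12 and 24 hours overlapped. The log2 difference from 0 hours was 0.38 ± 0.13 SE at 12 hours and 0.57 ± 0.13 SE at 24 hours.

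MT1F (ENSG00000198417.7, chr16:56657731-56660698, plus strand) had the fewest counts of the 10 members, 138 to 236 counts per library. It had 1.57 and 2.04 CPM at 0 hours, 2.52, 2.05 and 1.99 CPM at 12 hours, and 2.59, 1.64 and 2.57 CPM at 24 hours. These groups overlapped. Its log2 difference at 24 hours was 0.33 with a 95% interval from −0.08 to 0.74, which spans both no difference and the estimate for MT1X. It moved with the 0-hour libraries: without replicate 1 the differences at 12 and 24 hours were 0.10 and 0.147, and without the second library 0.489 and 0.534.

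**Figure D2:**
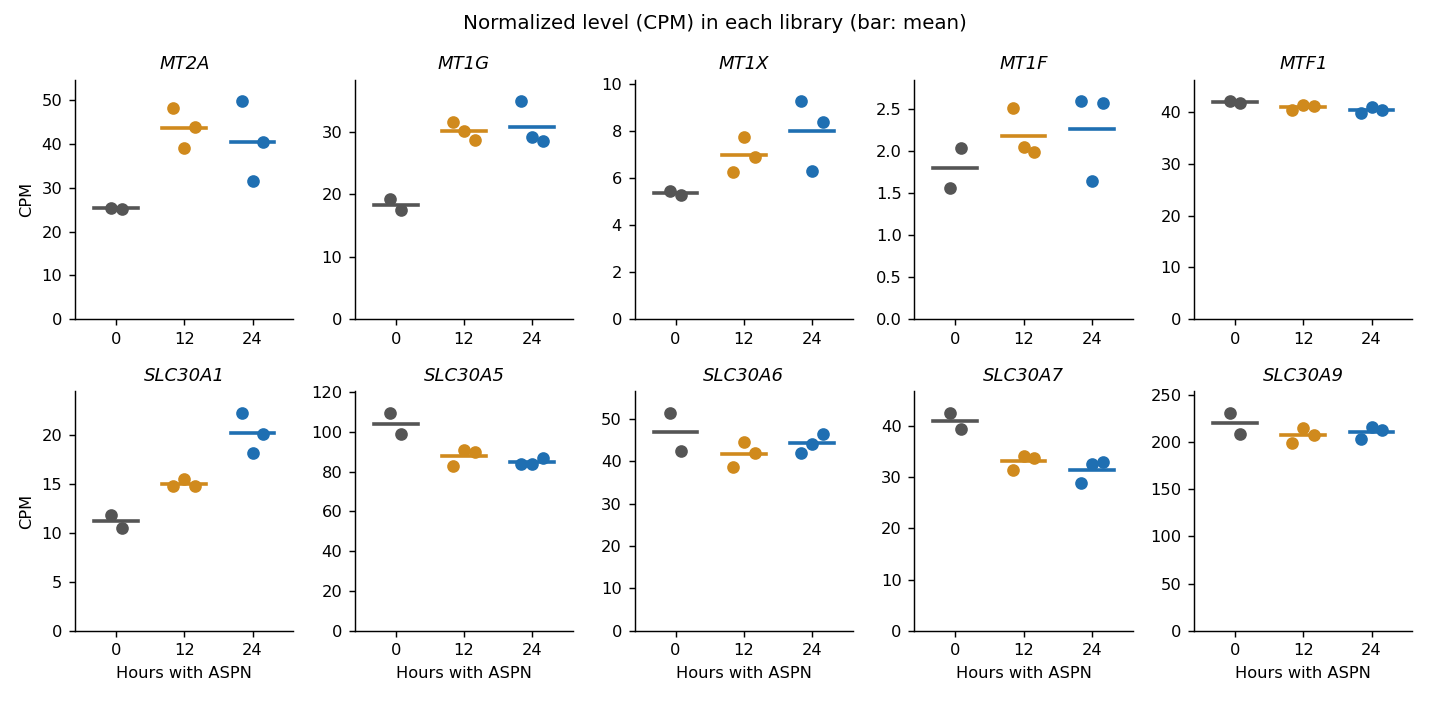
Normalized level in CPM (y axis, from 0) of the 10 members in each of the 8 libraries at 0, 12 and 24 hours (x axis), with a bar at the mean of each time point. MT2A, MT1G, MT1X and SLC30A1 have every 12- and 24-hour library above both 0-hour libraries, SLC30A5, SLC30A7 and MTF1 have every one below, and MT1F, SLC30A6 and SLC30A9 overlap.

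The metallothionein genes are close copies, so the assignment of reads was examined. In the annotated main transcripts of MT2A, MT1F and MT1G, 0% of the 150-base windows (the read length) occurred in another gene, and in MT1X 6.67% did, all of them shared with ENSG00000259827, a gene on the same strand that covers 18.6% of the exon bases of MT1X and had no row in the table. For windows of 75 bases the shared part was 6.55% in MT1G and 36.1% in MT1X. How multiply mapped reads were counted was not stated, so the level of MT1X in particular is uncertain. The remaining copies were low: MT3, a metallothionein best known from brain, had 12 to 26 counts per library, MT1H 0 to 2, and of the 5 pseudogenes with a row MT1DP had 30 to 84, MT1P1 0 to 19, MT1XP1 2 to 19, MT1P3 0 to 3 and MT2P1 0 to 5. MT1A, MT1B, MT1E, MT1M and MT4 were not analysed here because the table used had no row for them.

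To make the result independent of how reads were split among the copies with a row, all metallothionein rows were summed. Reads shared with genes that have no row can still be missing from the sum. The sum was 52.3 and 51.0 CPM at 0 hours, 89.5, 80.1 and 82.8 CPM at 12 hours, and 97.7, 69.8 and 81.2 CPM at 24 hours. It was 1.63-fold higher at 12 hours (log2 difference 0.70 ± 0.13 SE) and 1.60-fold higher at 24 hours (0.68 ± 0.13 SE), while 24 and 12 hours differed by −0.02 (95% interval −0.30 to 0.25). The 4 members made up 98.3% to 98.8% of the sum in every library. MT2A supplied 45.2% to 53.8% of it and MT1G 34.4% to 41.8%, and the time points overlapped in both shares. The 24-hour replicate 2 had the lowest MT2A share and the highest MT1G share of the 8 libraries.

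Among the exporters SLC30A1 (ENSG00000170385.10, chr1:211571568-211579161, minus strand) stood higher at each later time point. It had 11.9 and 10.5 CPM at 0 hours, 14.8, 15.5 and 14.8 CPM at 12 hours, and 22.2, 18.1 and 20.1 CPM at 24 hours. No 2 time points overlapped. The level was 1.34-fold that of 0 hours at 12 hours (log2 difference 0.43 ± 0.09 SE) and 1.80-fold at 24 hours (0.85 ± 0.08 SE), and 24 hours exceeded 12 hours by 0.42 ± 0.07 SE on the log2 scale. SLC30A1 thus differed between 12 and 24 hours, an interval over which the summed metallothioneins did not separate; a difference between these courses was not tested.

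The exporters of the secretory pathway were lower after 0 hours or overlapped with it. SLC30A5 (ENSG00000145740.19, chr5:69093949-69131069, plus strand) had 109 and 98.8 CPM at 0 hours, 82.6, 91.1 and 89.9 CPM at 12 hours, and 83.6, 83.9 and 86.9 CPM at 24 hours. Its log2 difference was −0.24 ± 0.05 SE at 12 hours and −0.30 ± 0.05 SE at 24 hours, that is 0.814-fold at 24 hours. SLC30A7 (ENSG00000162695.12, chr1:100896076-100981757, plus strand) had 42.5 and 39.3 CPM at 0 hours, 31.5, 34.2 and 33.8 CPM at 12 hours, and 28.8, 32.7 and 32.9 CPM at 24 hours. It was 0.81-fold at 12 hours (−0.30 ± 0.06 SE) and 0.768-fold at 24 hours (−0.38 ± 0.06 SE). For both genes every later library was below both 0-hour libraries, and the 12- and 24-hour libraries overlapped. With GC and length correction the differences at 12 hours were smaller, −0.14 for SLC30A5 and −0.18 for SLC30A7.

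SLC30A6 (ENSG00000152683.14, chr2:32165841-32224379, plus strand), the partner of SLC30A5, had 51.3 and 42.3 CPM at 0 hours, 38.6, 44.6 and 41.9 CPM at 12 hours, and 42.0, 44.0 and 46.5 CPM at 24 hours. Its 0-hour libraries were far apart for a gene of this level, and all time points overlapped. The log2 difference was −0.17 at 12 hours (95% interval −0.31 to −0.03) and −0.09 at 24 hours (−0.23 to 0.05). These values rest on the 0-hour libraries: without replicate 1 they were −0.02 and 0.06, without the second library −0.29 and −0.21, and with GC and length correction −0.05 and −0.01. Counts of SLC30A5 per count of SLC30A6 were 2.13 and 2.34 at 0 hours, 2.04 to 2.15 at 12 hours and 1.87 to 1.99 at 24 hours, so the 24-hour libraries were below all others in this ratio. SLC30A5 overlaps an antisense gene over 9.78% of its exon bases, and whether counting used the strand was not stated.

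SLC30A9 (ENSG00000014824.14, chr4:41990502-42090461, plus strand) was the most abundant exporter of the 5. It had 231 and 209 CPM at 0 hours, 199, 215 and 207 CPM at 12 hours, and 203, 216 and 212 CPM at 24 hours. The groups overlapped, and the log2 difference was −0.09 at 12 hours (95% interval −0.18 to 0.01) and −0.06 at 24 hours (−0.16 to 0.04).

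**Figure D3:**
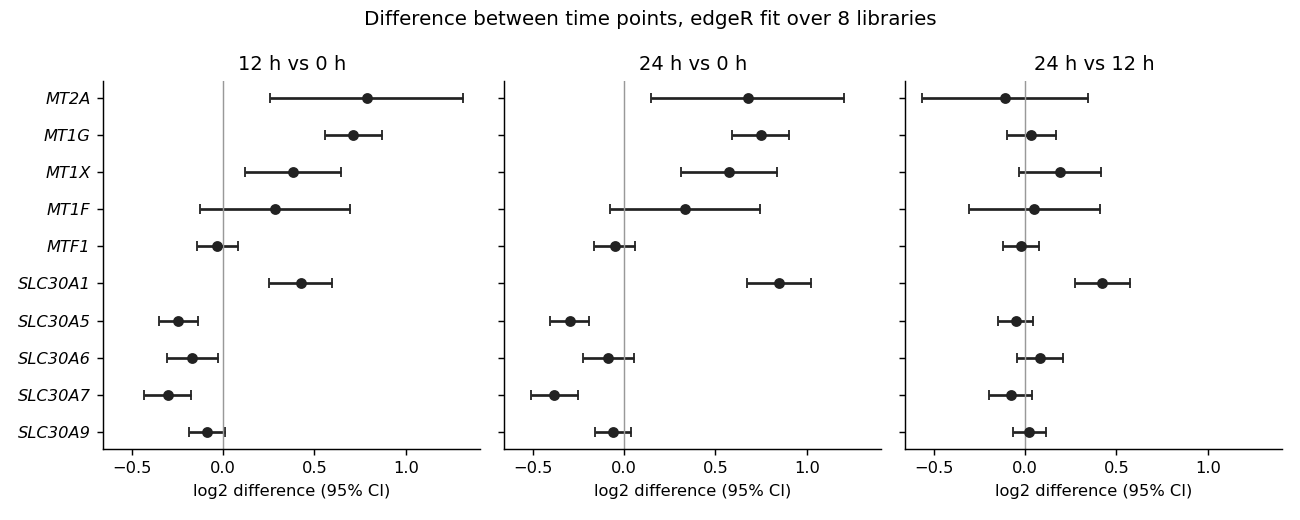
Difference of each member between time points on the log2 scale (x axis), with points for the estimate of the edgeR fit over all 8 libraries and bars for the 95% confidence interval. SLC30A1 lies above 0 in all 3 panels, up to 0.85 at 24 against 0 hours, and the intervals of MTF1, MT1F and SLC30A9 include 0 in all 3.

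Among the 5 member exporters the mix of RNA therefore differed between time points. SLC30A4, the most abundant SLC30 gene, is described further below and is not among these 5. SLC30A1 accounted for 2.66% and 2.62% of the counts of the 5 exporters at 0 hours, for 4.03%, 3.87% and 3.81% at 12 hours, and for 5.84%, 4.59% and 5.03% at 24 hours. The time points did not overlap in this share. The 5 genes together summed to 446 and 400 CPM at 0 hours, 366, 401 and 388 CPM at 12 hours, and 380, 395 and 399 CPM at 24 hours, with the highest value in the 0-hour replicate 1 and overlap among the rest.

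**Figure D4:**
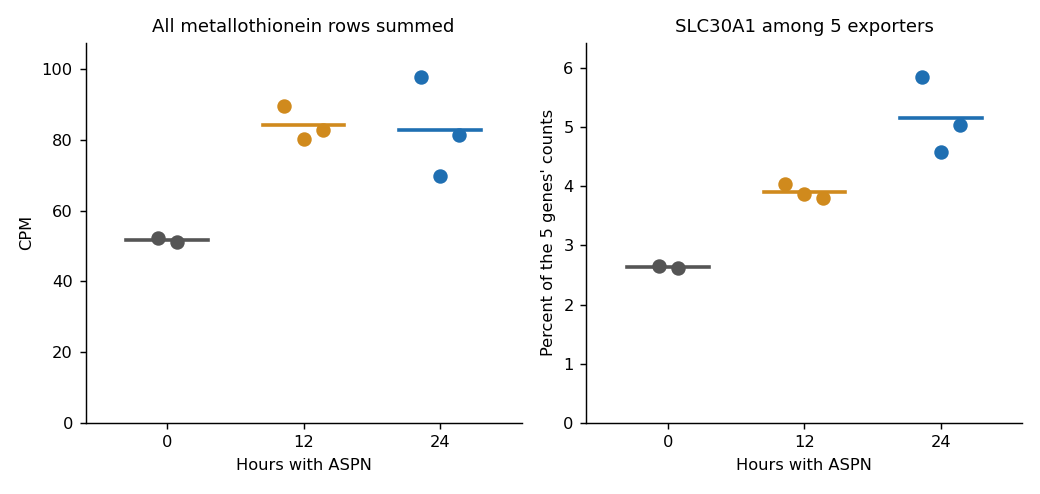
Left, the level in CPM of all metallothionein rows summed, and right, counts of SLC30A1 as a percent of the counts of the 5 member exporters (y axes, from 0), in each library at 0, 12 and 24 hours (x axis) with a bar at the mean. The sum is at 51.0 to 52.3 CPM at 0 hours and from 69.8 CPM upward later, while the share of SLC30A1 separates all 3 time points.

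Levels of different genes were compared per kilobase of the annotated main transcript, since counts grow with transcript length. At 0 hours the order was MT2A (63.2 CPM per kb), MT1G (44.8), SLC30A9 (35.7), SLC30A5 (26.1), MT1X (13.2), SLC30A6 (9.20), MTF1 (5.28), SLC30A7 (4.99), MT1F (4.24) and SLC30A1 (1.89), with no overlap between neighbours in the 2 libraries. SLC30A1 was thus the least abundant of the 10 at 0 hours on this scale and remained last at 24 hours, with 3.41 CPM per kb, where its libraries overlapped those of SLC30A7 (3.83). At 24 hours MT2A and MT1G stood at 101 and 75.3 CPM per kb and overlapped, as did SLC30A5 (21.2) with MT1X (19.7) and MT1F (5.34) with MTF1 (5.10). The order depends on the length used: over all annotated exon bases, SLC30A9 (30.5 CPM per kb) came before MT2A (27.7) at 0 hours and MT1F (0.97) was last.

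Counts of members past a threshold are given beside the share of all genes as a description, since the members were chosen with results known. With edgeR's quasi-likelihood test and Benjamini-Hochberg adjustment over all 21071 genes tested, 5 members had an adjusted p of at most 0.05 at 12 against 0 hours. SLC30A1, MT1G and MT1X were higher, where 4.85% of all genes were, and SLC30A5 and SLC30A7 lower, where 6.75% were. The same 5 genes were past it at 24 against 0 hours, 3 higher and 2 lower, beside 7.82% and 8.49% of all genes. At 24 against 12 hours SLC30A1 was the 1 member past it, in the higher direction, beside 1.12% of all genes higher and 1.61% lower. MT2A was not past this threshold in either comparison with 0 hours, although its estimate was larger than that of MT1G at 12 hours and slightly smaller at 24 hours, and it was past it with DESeq2 in both. Without the 0-hour replicate 1, only SLC30A1 and MT1G were past it at 12 hours, and SLC30A5 and SLC30A7 then stood at −0.17 and −0.25.

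A fold change of at least 1.5 in addition was reached by MT1G at 12 hours (1.05% of all genes), by MT1G and SLC30A1 at 24 hours (2.45%), and by no member between 12 and 24 hours (0.18%). Libraries did not overlap for 7 of the 10 members at 12 against 0 hours, beside 36.9% of all genes in either direction, for 7 at 24 against 0 hours, beside 43.2%, and for 1 at 24 against 12 hours, beside 19.6%. The median log2 difference of the 10 members was 0.13 at 12 hours, 0.14 at 24 hours and 0.03 between them, where the median of all genes tested was within 0.01 of 0 in each. This median joins groups that went opposite ways. Against 0 hours the metallothioneins had medians of 0.55 at 12 hours and 0.63 at 24 hours, and the exporters −0.17 and −0.09. Both comparisons with 0 hours use the same pair of 0-hour libraries.

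The genes whose course was most like those of SLC30A1 and MT2A were found by Pearson's r of log2 CPM over the 8 libraries, among 12533 named genes that averaged 100 or more normalized counts. For SLC30A1 they were GNG7 (r = 0.995), ADRA2C (0.99) and POGK (0.985), and for MT2A they included AFDN (0.99) and RASSF4 (0.975). The named genes were picked for the highest r among these 12533, so high values follow from the choice. The 8 points also share their time point and library scaling, so these r values are a description.

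The rest of the zinc families gave 27 further genes by nomenclature, of which 22 had a row and 16 passed the filter on low counts. Of these 16, edgeR called 7 at 12 against 0 hours (2 higher, 5 lower), 10 at 24 against 0 hours (5 higher, 5 lower) and 3 at 24 against 12 hours (1 higher, 2 lower), with an adjusted p of at most 0.05 over all genes. Of all genes tested, 11.6%, 16.3% and 2.72% were past this threshold in the respective comparisons, in either direction. Without the 0-hour replicate 1 these counts were 4 and 6 in the comparisons with 0 hours. Their median log2 difference was −0.01 at 12 hours and below 0.01 in size at 24 hours.

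SLC30A4, an exporter that fills vesicles and is known from secretion into milk, was the most abundant SLC30 gene, with 41.3% to 48.6% of the family's counts in each library. It had 317 and 297 CPM at 0 hours, 292, 316 and 312 CPM at 12 hours, and 361, 366 and 369 CPM at 24 hours. It rose by 0.25 ± 0.05 SE on the log2 scale at 24 hours (edgeR, adjusted p = 0.00012), and at 12 hours it was at −0.0017 with an interval from −0.09 to 0.09. Between 12 and 24 hours it rose by 0.25 ± 0.04 SE (edgeR, adjusted p = 0.00027). MT1H had 8 cores in its promoter window, more than MT2A, and 0 to 2 counts per library. TMEM163, a zinc transporter of vesicles and the plasma membrane, rose 1.69-fold at 12 hours (edgeR, adjusted p = 0.0071) from 1.29 CPM.

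Importers of the SLC39 family changed in both directions. SLC39A10, a plasma membrane importer, had 241 and 224 CPM at 0 hours, 93.0, 93.2 and 101 CPM at 12 hours, and 66.4, 96.3 and 82.6 CPM at 24 hours, and fell to 0.413-fold and 0.352-fold (edgeR, adjusted p = 0.0048 and 0.0015). SLC39A14, an importer of zinc and iron, fell by 0.42 ± 0.05 SE on the log2 scale at 24 hours (edgeR, adjusted p = 2.9e-08). SLC39A7, which releases zinc from the endoplasmic reticulum, fell by 0.38 ± 0.04 SE (adjusted p = 5.4e-08). SLC39A8, another importer at the cell surface, rose by 0.22 ± 0.05 SE at 24 hours (edgeR, adjusted p = 0.0039). Of the 11 SLC39 genes tested, 4 fell and 2 rose at 24 hours with an adjusted p of at most 0.05 (edgeR). Of all genes tested, 8.49% were lower and 7.82% higher at this threshold.

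**Figure D5:**
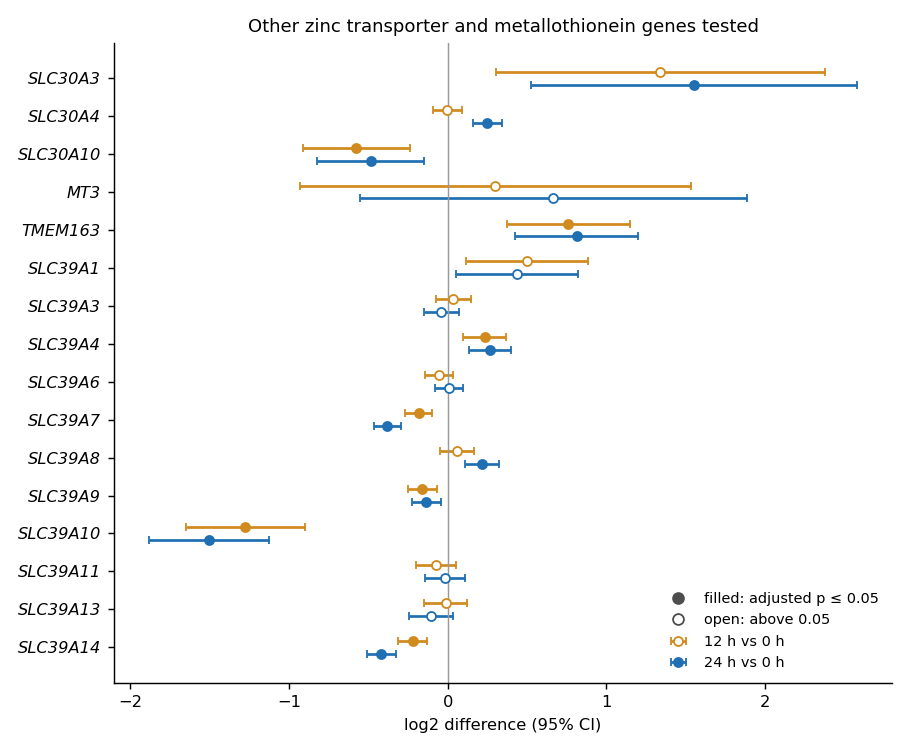
Difference from 0 hours on the log2 scale (x axis) of the 16 other zinc transporter and metallothionein genes tested, at 12 hours (orange) and 24 hours (blue), with 95% confidence intervals and filled points for an adjusted p of at most 0.05. SLC39A10 has the lowest estimates, SLC30A4 stands at 0 at 12 hours and at 0.25 at 24 hours, and the rarely counted SLC30A3 and MT3 have the widest intervals.

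Genes that handle copper and iron were set beside those for zinc, since metallothioneins also bind copper. Of 23 listed genes 22 were tested, and edgeR called 3 at 12 against 0 hours (0 higher, 3 lower), 4 at 24 against 0 hours (1 higher, 3 lower) and 4 at 24 against 12 hours (3 higher, 1 lower). The first 2 of these counts lie near the share of all genes past the threshold (11.6% and 16.3%, beside 2.72% at 24 against 12 hours), so they show nothing particular to the list. The copper importer SLC31A1 fell by 0.40 ± 0.05 SE on the log2 scale at 12 hours (edgeR, adjusted p = 1.6e-06) and by 0.55 ± 0.05 SE at 24 hours (adjusted p = 1.2e-09), while the copper exporters ATP7A and ATP7B had estimates of 0.03 and 0.11 at 24 hours. HMOX1, heme oxygenase 1, which responds to several metals and to oxidative stress, fell to 0.807-fold at 24 hours (edgeR, adjusted p = 0.019). The transferrin receptor TFRC rose by 0.16 ± 0.05 SE at 24 hours (edgeR, adjusted p = 0.012). The metalloreductases STEAP1 and STEAP2 and the ferritin subunit FTH1 were higher at 24 than at 12 hours, by 0.21, 0.24 and 0.16 on the log2 scale (edgeR, adjusted p = 0.0015, 0.00087 and 0.029). At 12 hours STEAP2 and FTH1 had been lower than at 0 hours, by −0.17 and −0.15. The counts of this list ranged from 1 to 6 at 12 hours and from 2 to 4 at 24 hours when single libraries were left out.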

How the data were processed

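RNA-Seq libraries of LNCaP cells at 0, 12 and 24 hours with ASPN were analysed from the raw counts per gene that the authors deposited. Per the labels and the study's methods, poly(A) RNA was sequenced as read pairs of 150 bases, and the authors trimmed reads with Cutadapt 4.5, aligned them to GRCh38.p13 with STAR 2.7.11a and counted them with featureCounts 2.0.2. Strand and multi-mapping options were not stated, so overlapping genes and close copies can share reads. The members and lists were chosen with earlier results of these data known.

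Column names gave each library's time point. The second 0-hour column carries a number that no 0-hour label has, so it entered without a replicate number. No column was left unused. Counts were fitted with edgeR 4.0.16 in R 4.3.3 (quasi-likelihood, robust), with TMM scaling and filterByExpr, giving each time point its own coefficient in a fit over all 8 libraries. P-values were adjusted by Benjamini-Hochberg over 21071 genes, and a gene was called at an adjusted p of at most 0.05, with a 1.5-fold threshold given separately. Intervals are at 95%. The test recovered planted changes on data simulated with the spread that this same fit estimated. Such data follow the model of the fit, so the recovery cannot show whether that model holds for these libraries. Changes as small as the smallest described here were not planted. P-values measure the spread between these libraries, which may be wells of 1 experiment. The spread that edgeR calls the biological coefficient of variation was 5.59%. The library totals allow up to 0.0310 to 0.0413 CPM at a count of 0 (3 counts), which covers counting error only. Replicates differed beyond sampling noise (chi-square per degree of freedom 5.10 to 13.8), so each counted once.

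Named genes were all members, up to 6 genes per other list past the threshold by smallest p, the metallothionein copies, and the 3 genes most like SLC30A1 and MT2A, of which 1 is not reported here. ATP7A and ATP7B were added after values were seen. Coordinates are those of the table (GRCh38). Transcript lengths and shared windows came from GENCODE release 44, and promoters from RefSeq. Of the 36474 genes of the count table, 30996 had the same versioned identifier in that release, all with equal coordinates. SLC30A5 was the member whose coordinates differed, so its length and antisense overlap come from another gene model than that of the counts. The alternatives were DESeq2 1.42.0, other scalings and filters, GC and length correction, thinning, a replicate block, the compared time points alone, summed copies and leaving out each library.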

Additional observations from a re-analysis of the deposited data

How the results depend on the processing

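SLC30A1 kept its direction and its side of the threshold in all 18 alternatives, with log2 differences from 0.35 to 0.52 at 12 hours and from 0.77 to 0.94 at 24 hours, as did MT1G in the 17 that keep its row, from 0.65 to 0.79 and from 0.65 to 0.81. MT1X at 12 hours passed the threshold narrowly and lost it under GC and length correction (0.35), thinning (0.36), the replicate block (0.43) and 5 of the 8 settings without a library. MT2A passed it with DESeq2 (0.79 and 0.68), at 12 hours with the compared time points alone (0.79), with the replicate block (1.02 and 0.89), and without the 24-hour replicate 1 (0.79 and 0.50) or 2 (0.79 and 0.83).

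Direction turned where the difference was near 0. With GC and length correction SLC30A9 stood at 0.0138 (12 against 0 hours), 0.00197 (24 against 0 hours) and −0.0118 (24 against 12 hours), and the summed metallothioneins at 0.0261 (24 against 12 hours). Leaving out single libraries gave, at 24 against 12 hours, −0.0622 to 0.236 for MT1F, −0.0633 to 0.0867 for MT1G, −0.283 to 0.0408 for MT2A, −0.0105 to 0.0525 for SLC30A9 and −0.158 to 0.083 for the summed metallothioneins, and at 24 against 0 hours −0.212 to 0.0575 for SLC30A6 and −0.126 to 0.00583 for SLC30A9. The summed metallothioneins were at 0.664 to 0.737 (12 against 0 hours) and 0.545 to 0.794 (24 against 0 hours) without single libraries, and at 0.684 (24 against 0 hours) with the compared time points alone, not always past the threshold.

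Counts past the threshold without single libraries ranged from 2 to 6 members, 4 to 7 other zinc genes and 1 to 6 copper and iron genes at 12 against 0 hours. They ranged from 6 to 10 other zinc genes and 2 to 4 copper and iron genes at 24 against 0 hours, and from 2 to 5 copper and iron genes at 24 against 12 hours. For copper and iron the compared time points alone gave 1 at 12 against 0 hours, and GC and length correction 7 at 24 against 0 and 7 at 24 against 12 hours. Deviations of same-numbered 12- and 24-hour libraries correlated at 0.112, 0.0295 and 0.0263, and those of differently numbered ones at −0.0903 to 0.0627. With so few libraries and 0 hours left out, this cannot settle whether the replicate numbers pair the samples. A replicate block over the 7 numbered libraries gave 9 members at 24 against 0 hours and 7 at 12 against 0 hours, and 6 and 2 copper and iron genes at 12 and 24 against 0 hours. With 1 numbered library at 0 hours, that block rests each comparison on a single 0-hour library, which is assumed to vary like the other groups. Apart from the settings that remove libraries, the cause was not tested. MT1F, with 138 to 236 counts per library, ranged over its 17 alternatives from 0.10 to 0.70 at 12 hours and from 0.147 to 0.728 at 24 hours, and SLC30A6 over 18 from −0.378 to −0.0196 and from −0.30 to 0.0575.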
